A study of Rattus norvegicus with 63 samples.

Results

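The liver microRNAs rno-miR-23a, rno-miR-23b, rno-miR-24, rno-miR-27a and rno-miR-27b, written below without the prefix for rat, were followed in male Wistar Hanover rats that received 1 of 15 compounds or a vehicle by gastric gavage. They were chosen by name, as the 5 mature forms without a star that the array lists for the 2 miR-23/27/24 gene clusters, and they are 5 of 350 rat miRNAs on the array and of 162 detected on at least 1 array. The study asks which early changes in rat liver mark a carcinogenic compound, and its data hold 63 arrays, 1 per rat, in 21 groups of 3. The rats were 8 to 10 weeks old at assignment, and the 3 rats of each treated group were picked out of 5 for changes seen on histopathology, so they are not a random draw of treated animals.

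Methylcellulose (MC, for which the study also names carboxymethyl cellulose) was the vehicle of 12 compounds, which were compared with 4 MC control sets of 3 rats each. Acetamide (AA, 3000 mg/kg/day), Dehydroepiandrosterone (DHEA, 600 mg/kg/day) and Methylcarbamate (Mcarb, 400 mg/kg/day) were given for 14 days, Methapyrilene HCl (MPy, 60 mg/kg/day) and Thioacetamid (TAA, 19.2 mg/kg/day) for 7 days and Wy-14643 (Wy, 60 mg/kg/day) for 3 days, all with MC set 1. Cefuroxime (CFX, 250 mg/kg/day) and Nifedipine (Nif, 3 mg/kg/day), given for 14 days, had MC set 2. Ethionine (ETH, 200 mg/kg/day, 14 days), Diethylstilbestrol (DES, 10 mg/kg/day, 3 days) and Piperonylbutoxide (PBO, 1200 mg/kg/day, 3 days) had MC set 5. Phenobarbital sodium (PB, 14 days) was compared with MC set 6. In corn oil (CO), C.I Direct Black (CIDB, 146 mg/kg/day) and Dimethylnitrosamine (DMN, 4 mg/kg/day), both for 7 days, shared CO set 3, and Cyproterone acetate (CPA, 100 mg/kg/day, 14 days) had CO set 4. By the labels, every MC set and CO set 4 received vehicle for 14 days, and CO set 3 for 7 days. The MC sets were labelled so even where their compounds were given for 3 or 7 days, although the study's methods describe time-matched controls. PB, PBO, DHEA, AA, MPy, Mcarb, DES and ETH are nongenotoxic carcinogens (NGC), CIDB and DMN are genotoxic carcinogens (GC), CFX and Nif are non-carcinogens (NC), and CPA, TAA and Wy have no defined class.

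A miRNA is cut from a hairpin in a longer primary transcript and guides a silencing complex to messenger RNAs, mostly by pairing of its seed near the 5′ end. Hairpins of miR-23, miR-27 and miR-24 lie side by side in 2 paralogous clusters, and the hairpins of 1 cluster are thought to come from a shared primary transcript. The a cluster is well known from blood and vascular cells, the b cluster from liver and other solid tissue, and miR-27 is known for targets in lipid metabolism.

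The mature sequences are shown because the comparison of the 2 clusters rests on single bases. All 5 members matched a mature form of RefSeq by name (build GRCr8), and capitals mark the seed, bases 2 to 8 counted from the 5′ end.
miR-23a: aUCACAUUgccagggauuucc
miR-23b: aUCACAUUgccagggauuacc
miR-27a: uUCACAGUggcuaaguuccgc
miR-27b: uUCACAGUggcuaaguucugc
miR-24: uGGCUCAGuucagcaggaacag
The paralogs of each pair differ at 1 of 21 positions, outside the seed: U19A from miR-23a to miR-23b and C19U from miR-27a to miR-27b, with positions counted from the 5′ end. The members thus hold 3 seeds, and no other of the 693 rat mature forms in the RefSeq table has 1 of them at bases 2 to 8.

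The a cluster lies on the minus strand of chromosome 19, with miR-23a at chr19:40859778-40859798 and miR-27a at chr19:40859614-40859634. The b cluster lies on the minus strand of chromosome 17, with miR-23b at chr17:1819405-1819425 and miR-27b at chr17:1819163-1819183, inside the annotated spans of Aopep and Fancc. miR-24 is made from both, from Mir24-2 (mature form at chr19:40859481-40859502) and from Mir24-1 (chr17:1818672-1818693). The hairpins of miR-24 are shown, with the mature form in capitals, because the 2 genes are not the same while the array reads only the mature form that they share.
Mir24-1: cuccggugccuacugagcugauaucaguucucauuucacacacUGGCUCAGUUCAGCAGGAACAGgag
Mir24-2: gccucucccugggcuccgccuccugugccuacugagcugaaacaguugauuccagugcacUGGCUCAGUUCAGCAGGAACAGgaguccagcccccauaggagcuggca
A level of miR-24 is therefore a sum over both clusters, whereas those of miR-23 and miR-27 can be assigned to 1 cluster as far as the probes tell the paralogs apart. The sequences of the array's probes were not given in the sources used here, and whether a probe for 1 paralog also reads the other was not tested.

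**Figure D1:**
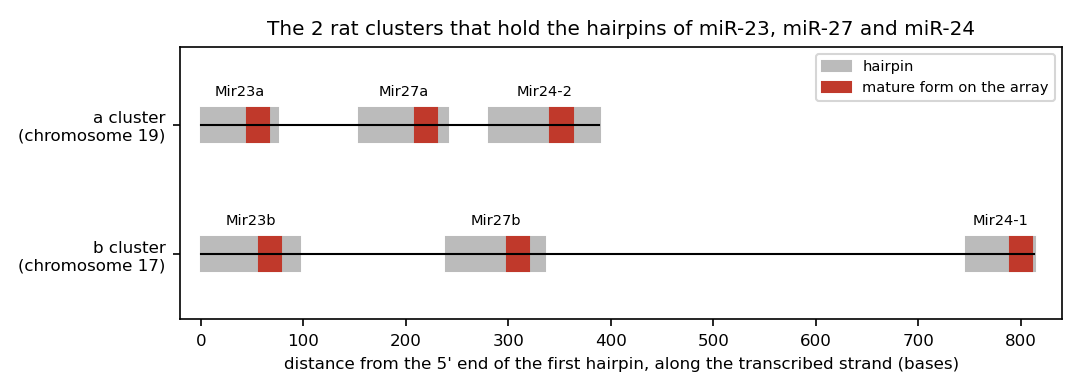
Positions of the hairpins (grey) and of the mature forms on the array (red) in both clusters, as distance in bases from the 5′ end of the first hairpin along the transcribed strand. The order miR-23, miR-27, miR-24 is the same in both, the a cluster spans 389 bases and the b cluster 814 bases.

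Each member was read by 2 probes with 20 spots in all, and was detected and well above background on 63 of 63 arrays. Values are log2 levels after quantile normalization without background correction, and a change is the difference of group means on that scale, tested with limma over all 162 detected miRNAs at an adjusted p under 0.05. Levels of different probes cannot be set against each other, so only changes are compared between members, and in bulk liver a smaller number of cells of a type and less RNA per cell cannot be told apart. There were 9 slides and 3 scan days, and the groups Wy, TAA and DES share no scan day with their control sets. Those 3 groups and AA, DHEA, DMN, ETH, MPy, Nif and PB share no slide with their control sets. Within these comparisons slide and treatment cannot be told apart. The deposited table of normalized values disagrees with the scanner files for 15 samples: its DES columns follow the arrays filed as DHEA and the reverse, and the columns of MC sets 1, 5 and 2 follow the arrays of sets 5, 2 and 1. Scanner files are kept here under their own labels, and values with the table's assignment of arrays are given where they change a call, while CIDB, DMN, CPA and PB are not touched.

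Of the 75 changes of 5 members in 15 compounds, 19 were called lower and 2 higher. The members were thus called lower in 25.3% of their values, against 6.71% over all miRNAs and compounds and 10.5% over the 71 miRNAs detected on all arrays. They were called higher in 2.67%, against 7.57% and 8.17%. miR-23b had 8 of the lower calls, in AA, CIDB, DES, DMN, ETH, PBO, TAA and Wy, and no higher call. miR-27b was called lower in 4 compounds, miR-24 in 3, and miR-23a and miR-27a in 2 each, while the higher calls were miR-23a in ETH and miR-27a in DMN. limma called no member in CFX, CPA, DHEA, Mcarb, MPy, Nif and PB, where 4 of 35 values had an unadjusted p under 0.05. Of all miRNAs, 0% were called in CFX and Nif, 1.85% in Mcarb, 3.09% in PB and 5.56% in CPA, but 18.5% in DHEA and in MPy. The members were picked with earlier results of these data known, so the counts are a description. The sizes were small on this scale without background correction, from -0.45 to 0.20 among the called changes. They depended on the processing, and the cause was not tested. Another setting took the scanner software's background-subtracted signal, scaled by the 75th percentile over detected probes and not quantile normalized. There the rise of miR-27a in DMN and the fall of miR-23b in Wy were larger, and the fall of miR-23b in CIDB was smaller. The median change of all miRNAs there was 0.10 in DMN, 0.15 in Wy and 0.31 in CIDB. Unless another signal or setting is named, sizes and percents below are on the scale without background correction.

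**Figure D2:**
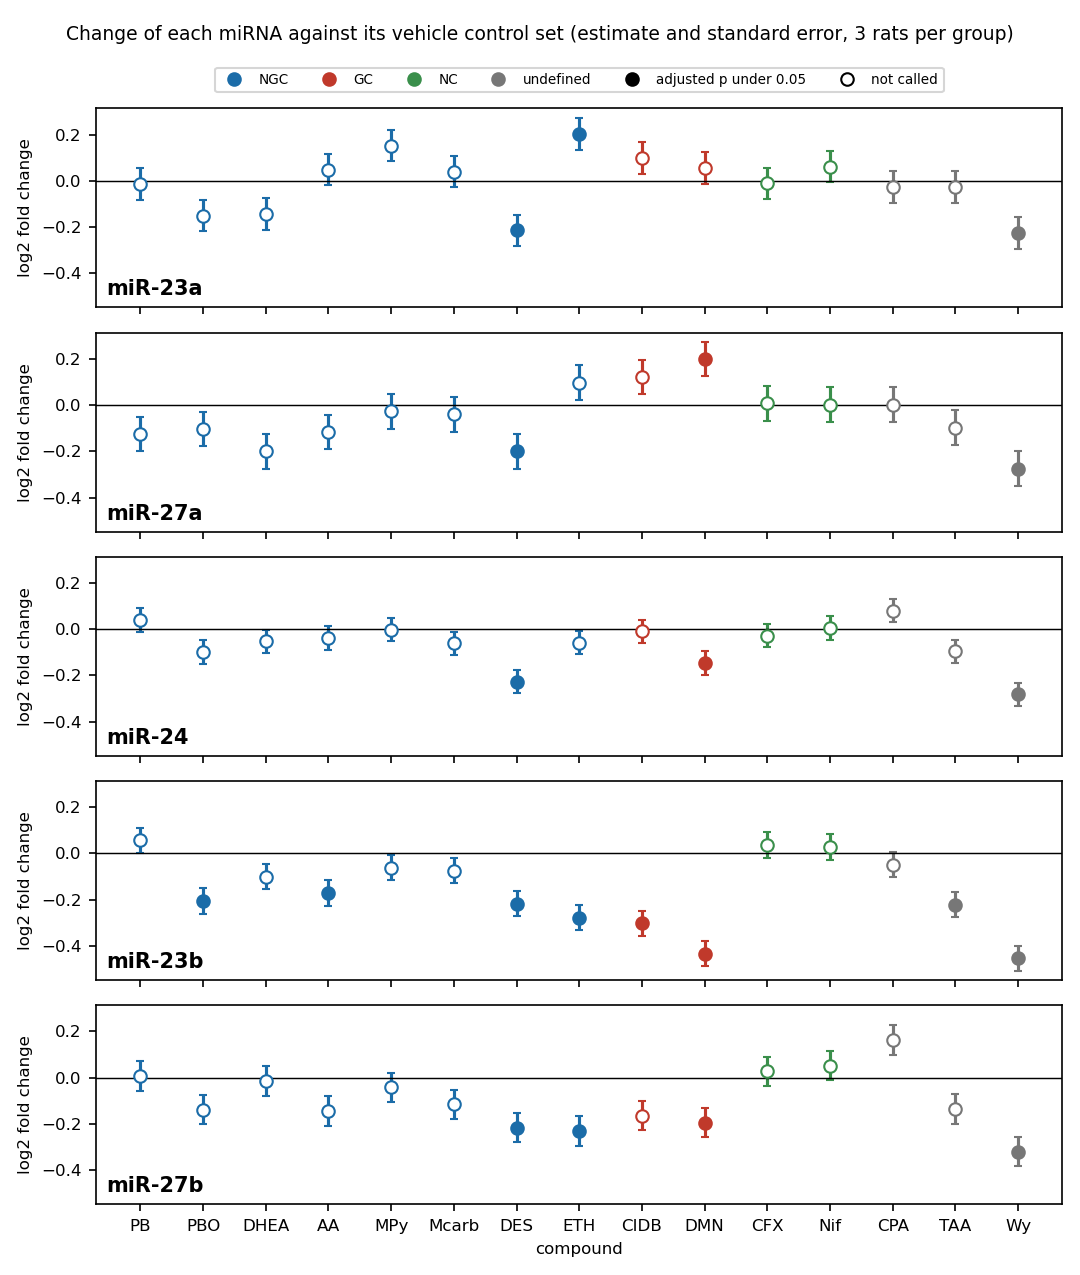
Log2 fold change of each member (panels) in each compound (x axis) against its control set, with the standard error of the fit, 3 rats per group; colours give the compound class and filled points the calls. The 2 panels of the b cluster, miR-23b and miR-27b, hold no filled point above 0, and all 5 members are filled and below 0 in Wy and in the arrays filed as DES.

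Wy, a peroxisome proliferator that activates PPAR alpha, was, with DMN, 1 of the 2 compounds with the largest falls of miR-23b, whose values differed by less than 1 SE. The 3 Wy rats had miR-23b levels of 9.29, 9.41 and 9.28 on the log2 scale, and the 3 rats of MC set 1 had 9.77, 9.92 and 9.64. All treated rats lay below all controls, and miR-23b fell by 0.45 ± 0.05 (SE), which is a fall by 27% (limma, adjusted p = 1.4e-08). All 5 members were called lower in Wy, where 25.9% of all miRNAs were called and 14.2% were called lower, and for all 5 the groups did not overlap, which held for 30.9% of all miRNAs.

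The other members fell by less in the same rats. miR-27b stood at 8.64, 8.69 and 8.71 in the Wy rats against 9.02, 9.10 and 8.89 in the controls (log2 fold change -0.32 ± 0.06, adjusted p = 0.000227). miR-24 stood at 8.82, 8.89 and 8.75 against 9.11, 9.20 and 8.99 (-0.28 ± 0.05, adjusted p = 5.48e-05). Control rat 5 of MC set 1 had the highest level of its set in all 5 members. miR-27a was 8.33, 8.33 and 8.20 in the Wy rats against 8.51, 8.80 and 8.37 (-0.28 ± 0.07, adjusted p = 0.00492), and miR-23a was 8.94, 8.90 and 8.85 against 9.06, 9.27 and 9.03 (-0.22 ± 0.07, adjusted p = 0.0122). Without that rat the changes were -0.15 for both, with adjusted p of 0.133 for miR-27a and 0.138 for miR-23a, and both also lost the call without Wy rat 3 (adjusted p = 0.0505 and 0.0662).

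The Wy arrays were scanned on day 1 and those of MC set 1 on days 2 and 3. With scan day in the model, miR-23b changed by -0.42 (adjusted p = 0.000139) and miR-27b by -0.24 (adjusted p = 0.0448) and kept their calls, whereas miR-24 (-0.15, adjusted p = 0.0789), miR-27a (-0.09, adjusted p = 0.601) and miR-23a (-0.02, adjusted p = 0.914) lost theirs. Under the value table's assignment of arrays, 3 members were called lower in Wy, miR-23b, miR-24 and miR-27b. With slide in the model none was, with -0.30 for miR-23b.

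The arrays filed as DES, a synthetic estrogen, also held all 5 members below their control set, by nearly equal amounts. Of all miRNAs, 37% were called there, 16% were called lower, and 54.3% did not overlap between the groups. miR-24 was 8.81, 8.85 and 8.85 against 8.99, 9.08 and 9.12 in MC set 5 (-0.23 ± 0.05, adjusted p = 0.000667), and miR-27b was 8.82, 8.75 and 8.69 against 8.95, 8.91 and 9.04 (-0.22 ± 0.06, adjusted p = 0.00762). miR-23a was 8.86, 8.86 and 8.89 against 9.11, 9.07 and 9.08 (-0.21 ± 0.07, adjusted p = 0.0129). In these members, as in the others, every treated rat lay below every control. miR-27a was 8.27, 8.29 and 8.26 against 8.44, 8.49 and 8.48 (-0.20 ± 0.07, adjusted p = 0.0322), and miR-23b changed by -0.22 ± 0.05 (adjusted p = 0.00219). The call of miR-27a was kept only without rat 7 of MC set 5 when single rats were left out (largest adjusted p = 0.0944), and that of miR-27b was lost without DES rat 3 (adjusted p = 0.0518) or rat 9 of MC set 5 (adjusted p = 0.0574).

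Of 5 leukocyte markers, 2 were called lower in the same arrays, where 37% of all miRNAs were called and 16% were called lower. These were miR-142-3p at -0.52 (adjusted p = 0.000696) and miR-142-5p at -0.08 (adjusted p = 0.0227). miR-223 (-0.09), miR-150 (-0.05) and miR-146a (0.01) were not called. The summed level of the 5 was 10.13 to 10.23 against 10.33 to 10.36. The endothelial miR-126* was called lower (-0.09), while miR-126 was at 0.13 and not called. The hepatocyte miR-192 was called higher (0.26, adjusted p = 0.00357), while miR-194 (-0.14) and miR-122 (-0.05) lay below their controls and were not called. No stellate or erythroid marker was called. Their part in the changes of the members was not tested.

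These arrays stand under DHEA in the value table, and so do those of MC set 5 under MC set 1. With that assignment the same 5 lower calls belong to DHEA, and DES has no call, with values from -0.10 to -0.02. The arrays filed as DES were scanned on day 1 and those of MC set 5 on day 2, and with scan day in the model no member was called in DES, while miR-27a gained a call in DHEA (-0.20, adjusted p = 0.0391). Slide as a block turned miR-24 and miR-27a there to 0.01 each.

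The GC DMN and CIDB were compared with the same 3 rats of CO set 3. In DMN, an alkylating agent activated in hepatocytes, both b-cluster members were called lower and 1 of the 2 a-cluster members, miR-27a, was called higher. miR-23b was 9.46, 9.30 and 9.42 in the DMN rats against 9.81, 9.96 and 9.70, with a gap between the groups, and fell by 0.43 ± 0.05 (SE) or by 26.0% (adjusted p = 1.78e-08). miR-27b was 8.74, 8.59 and 8.59 against 8.80, 8.98 and 8.72, with 1 treated rat inside the control range (-0.19 ± 0.06, adjusted p = 0.0253). miR-27a, from the other cluster, was higher in all 3 DMN rats, with 8.46, 8.68 and 8.61 against 8.40, 8.33 and 8.42 (0.20 ± 0.07, adjusted p = 0.0456). miR-23a differed by 0.05 ± 0.07 and was not called (adjusted p = 0.682). miR-24, made by both clusters, was 8.83, 8.85 and 8.86 against 8.94, 9.04 and 9.0 (-0.15 ± 0.05, adjusted p = 0.0317). Of all miRNAs, 23.5% were called in DMN, 9.88% lower and 13.6% higher, and 28.4% did not overlap between the groups, against 4 of 5 members called.

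In CIDB, an azo dye, miR-23b was 9.49, 9.56 and 9.53 and lay below the same controls (-0.30 ± 0.05, adjusted p = 3.98e-05), in a comparison in which 20.4% of all miRNAs were called, 7.41% lower, and 31.5% did not overlap. The other members were not called there, with 0.10 for miR-23a, 0.12 for miR-27a, -0.16 for miR-27b and -0.01 for miR-24. CIDB rat 2 was scanned on day 3 and CO set 3 on day 1, and with scan day in the model miR-27b was called lower too (-0.20, adjusted p = 0.0231). DMN and CO set 3 were scanned on the same day but share no slide. For miR-23b in DMN and CIDB the 2 probes gave -0.43 and -0.44, and -0.15 and -0.45. miR-23b kept its call in both compounds whichever rat was left out and also with slide in the model. In CIDB it was only -0.11 from the scanner software's background-subtracted signal scaled over detected probes. The median change of all miRNAs in CIDB was 0.31 in that setting. Of the other DMN calls, miR-24 was kept only without rat 4 of CO set 3 (largest adjusted p = 0.133) and miR-27a only without DMN rat 1 (largest adjusted p = 0.262), and miR-27b was lost without rat 5 of CO set 3 (adjusted p = 0.246), DMN rat 2 (adjusted p = 0.111) or DMN rat 3 (adjusted p = 0.0926).

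In ETH, an antagonist of methionine, both b-cluster members were called lower and miR-23a was called higher. miR-23b was 9.53, 9.53 and 9.48 against 9.79, 9.74 and 9.83 in MC set 5 (-0.28 ± 0.05, adjusted p = 0.000202). miR-27b was 8.72, 8.80 and 8.68 against 8.95, 8.91 and 9.04 (-0.23 ± 0.06, adjusted p = 0.00861). Both members of the b cluster thus lay below every control. miR-23a lay above every control, with 9.39, 9.22 and 9.26 against 9.11, 9.07 and 9.08 (0.20 ± 0.07, adjusted p = 0.0356), and kept its call only without ETH rat 2 when single rats were left out (without ETH rat 1, 0.15, adjusted p = 0.208). The 2 probes of miR-23a gave 0.11 and 0.29 in ETH, and over the 15 compounds they had the same sign in 8, with gaps of up to 0.28. miR-27b lost its call without ETH rat 3 (adjusted p = 0.0524) or rat 9 of MC set 5 (adjusted p = 0.0776). miR-27a also lay above every control, but at 0.10 ± 0.07 was not called (adjusted p = 0.482). In ETH, 16% of all miRNAs were called, 9.88% lower and 6.17% higher, and 37% did not overlap between the groups. ETH and MC set 5 were scanned on the same day but share no slide. Under the value table's assignment the 3 calls held, whereas with slide in the model none did (miR-23b, adjusted p = 0.312).

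Further calls of miR-23b were of about -0.2. They were found in PBO (-0.21 ± 0.05, adjusted p = 0.00934, with 8.64% of all miRNAs called and 3.7% lower), TAA (-0.22 ± 0.05, adjusted p = 0.0041, with 21.6% and 11.7%) and AA (-0.17 ± 0.05, adjusted p = 0.0307, with 13.6% and 5.56%). PBO and TAA rats lay below all their controls, while 1 AA rat did not, in comparisons in which 30.9%, 34% and 24.7% of all miRNAs did not overlap. AA and TAA lost the call with scan day in the model and without rat 5 of MC set 1 (adjusted p = 0.322 in AA and 0.0655 in TAA). AA also lost it without AA rat 1 (adjusted p = 0.138) or rat 2 (adjusted p = 0.0521) or rat 4 of MC set 1 (adjusted p = 0.0763), and PBO without rat 9 of MC set 5 (adjusted p = 0.0581). Under the value table's assignment miR-23b lost its call in AA (-0.18, adjusted p = 0.0595), and miR-27b gained a call in PBO (-0.18, adjusted p = 0.0417).

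**Figure D3:**
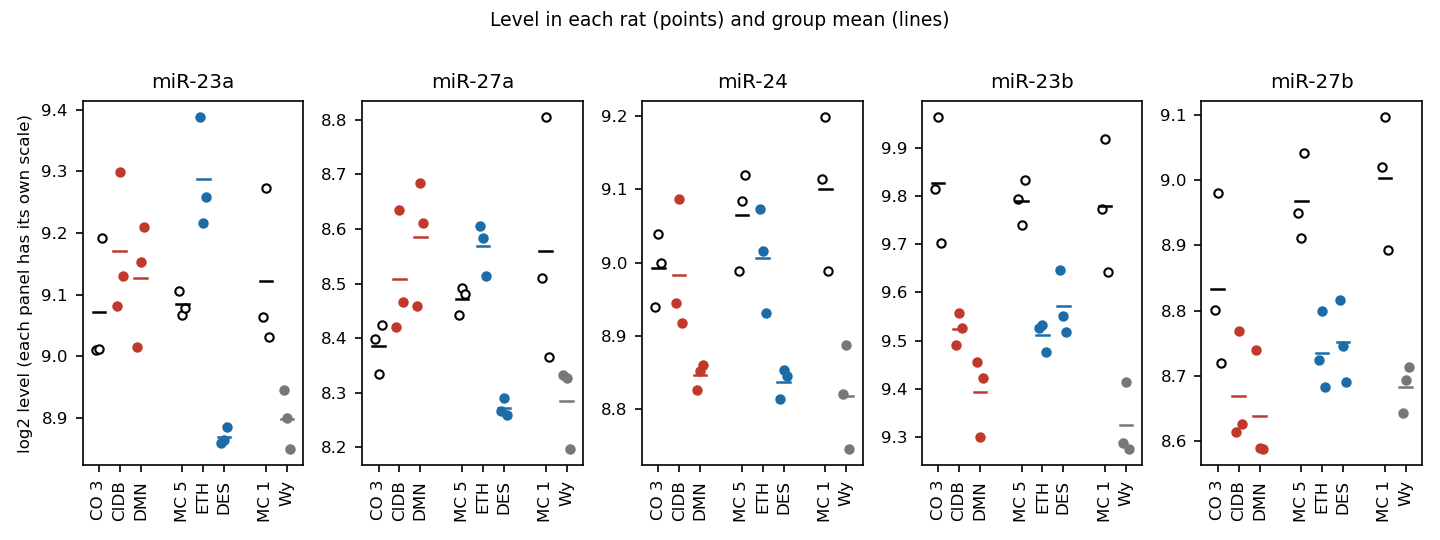
Log2 level of each member in each rat (points) with the group mean (lines), for CO set 3 with CIDB and DMN, MC set 5 with ETH and DES, and MC set 1 with Wy; open points are vehicle rats, and each panel has its own scale. In the miR-23b panel all treated rats lie below all rats of their control set, whereas in the miR-27a panel the DMN and ETH rats lie above theirs.

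The a and b paralogs were compared within each array, as miR-23a minus miR-23b and miR-27a minus miR-27b. Such a difference carries the unlike brightness of the probes, so that its size has no meaning, but it is free of any shift that a whole array shares, and its change between groups can be tested. Over the 18 vehicle rats the miR-23 difference ran from -0.97 to -0.51 with a median of -0.73, and the miR-27 difference from -0.67 to -0.29 with a median of -0.52. Of the 45 treated rats, 19 lay above all vehicle rats in the first and 11 in the second.

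The miR-23 difference rose against the control set in DMN, ETH, CIDB, Wy, AA and MPy, and the miR-27 difference in DMN, ETH and CIDB. In the ETH rats the miR-23 difference was -0.14, -0.32 and -0.22 against -0.69, -0.67 and -0.75 in MC set 5, a change by 0.48 ± 0.08 in favour of miR-23a (limma over 12 a/b pairs, adjusted p = 2.88e-06). In the DMN rats it was -0.44, -0.15 and -0.21 and in the CIDB rats -0.41, -0.26 and -0.40, against -0.80, -0.95 and -0.51 in CO set 3. All treated rats lay above all controls, though rat 6 of CO set 3 came close to them. The changes were 0.49 ± 0.08 in DMN (adjusted p = 2.13e-06) and 0.40 ± 0.08 in CIDB (adjusted p = 8.97e-05), which are ratios of 1.40 and 1.32.

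The miR-27 difference in the DMN rats was -0.28, 0.09 and 0.02, in the CIDB rats -0.19, -0.13 and -0.16, and in CO set 3 -0.40, -0.65 and -0.29. It changed by 0.39 ± 0.09 in DMN (adjusted p = 0.000141) and 0.29 ± 0.09 in CIDB (adjusted p = 0.00449). Rat 6 of the controls was again the nearest to the treated rats. In ETH it was -0.12, -0.22 and -0.17 against -0.51, -0.42 and -0.56, a change by 0.33 ± 0.09 (adjusted p = 0.00157). The size of the miR-27 change depended on the processing, and the cause was not tested. From the scanner software's background-subtracted signal, which was scaled and not quantile normalized, it was 0.77 in DMN and 0.62 in CIDB. In the value table it was 0.74 and 0.57. ETH gave 0.55 and 0.70, where the table's columns for MC set 5 follow the arrays of MC set 2. Without rat 5 of CO set 3 the CIDB change was 0.19 and not called (adjusted p = 0.0677). In the other 12 compounds the miR-27 difference was not called, and its value was largest in size in DHEA (-0.19, 95% interval -0.36 to -0.01, adjusted p = 0.0821).

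Smaller changes of the miR-23 difference were called in Wy (0.23 ± 0.08, adjusted p = 0.0268), AA (0.22 ± 0.08, adjusted p = 0.0345) and MPy (0.21 ± 0.08, adjusted p = 0.0424). Each of these 3 was kept in only 2 of the 6 fits without a single rat, those without rat 6 of MC set 1 and without treated rat 2, with a largest adjusted p of 0.129 in Wy, 0.126 in AA and 0.19 in MPy. In Wy both members had fallen, miR-23b further than miR-23a. In MPy neither was called by itself. The 2 probes of miR-23a gave -0.09 and 0.19 in AA, 0.02 and 0.28 in MPy, and -0.27 and -0.18 in Wy. In AA and MPy the called rise thus leaned on the second probe. TAA missed the threshold at 0.19 (adjusted p = 0.0738, 95% interval 0.03 to 0.36). It was called with scan day in the model (0.36, adjusted p = 0.00754) and under the value table's assignment (0.24, adjusted p = 0.0231), while MPy lost its call with scan day (0.20, adjusted p = 0.0567). DES, where both had been called lower, gave 0.00 with a 95% interval from -0.17 to 0.17. For CFX and Nif the intervals were -0.22 to 0.12 and -0.14 to 0.20, and for PB -0.24 to 0.10.

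In all, 9 of the 30 changes of these differences were called, all 9 toward the a member, and 22 of 30 values were above 0. That share of 30% was no higher than that of the 10 other a/b pairs on the array, such as miR-125a-5p and miR-125b-5p, of whose 150 values 32% were called, and 31.7% of all were called. By compound the share of the 12 pairs called was 91.7% in CIDB, 58.3% in DMN, 41.7% in ETH and in AA, and 33.3% in Wy and in MPy, and from 0% to 50% in the other compounds. By size among the 12 pairs, the miR-23 pair had rank 2 in DMN and in ETH and rank 3 in CIDB, and the miR-27 pair had rank 3 in DMN and in ETH and rank 6 in CIDB. The miR-23 change in DMN and CIDB was called in 14 of 14 settings of the processing. In ETH it was called in 13, all but the one with slide as a block (adjusted p = 0.0622), and the miR-27 change in DMN and CIDB in 12 and in ETH in 13.

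**Figure D4:**
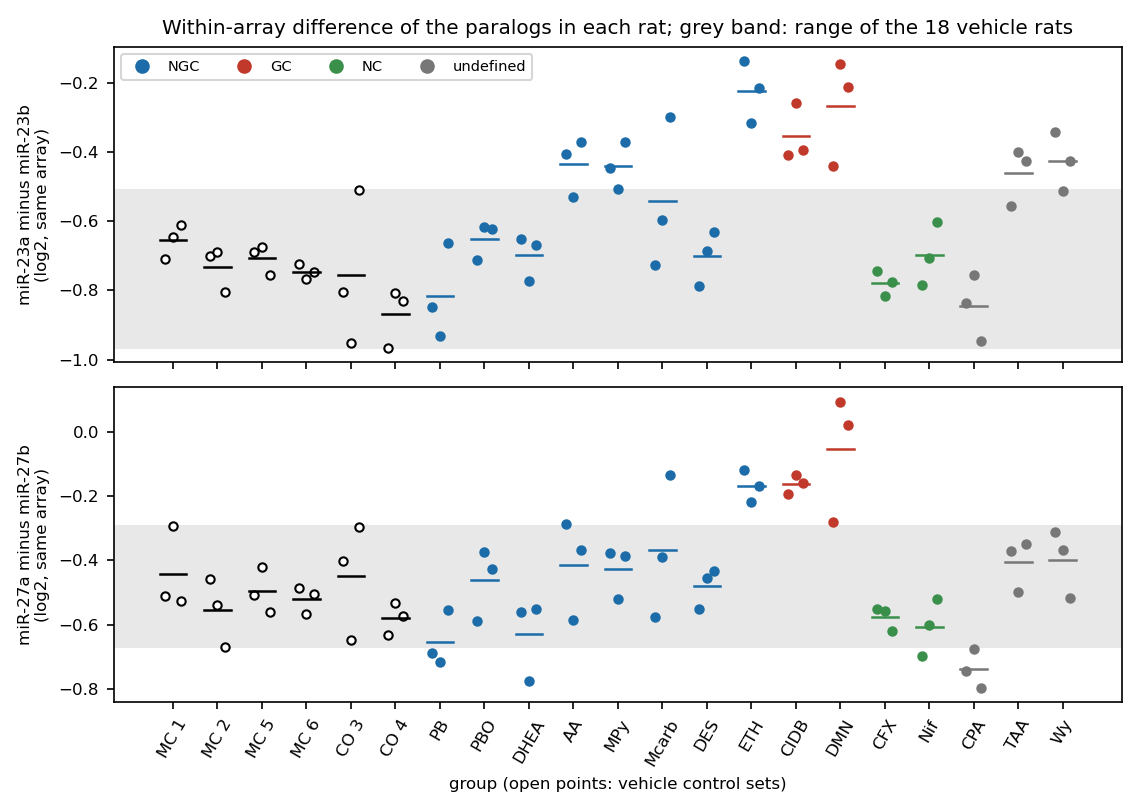
Within-array log2 difference of miR-23a minus miR-23b (top) and miR-27a minus miR-27b (bottom) in each rat of the 21 groups (points) with group means (lines); the grey band is the range of the 18 vehicle rats. All ETH, CIDB, DMN and MPy rats lie above the band in the top panel, as do some AA, TAA, Wy and Mcarb rats. In the bottom panel all ETH, CIDB and DMN rats lie above it, as do single rats of AA and Mcarb.

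The 2 differences moved together from rat to rat. Over the 63 arrays their Pearson r was 0.869, with 0.796 after the group means were taken off, 0.866 over the 30 arrays of scan day 1 and 0.870 over the 28 of day 2. The points share arrays and normalization, but no probe. Between members the same picture appeared: r was 0.864 for miR-23a with miR-27a and 0.814 for miR-23b with miR-27b, but 0.01 for miR-23a with miR-23b and 0.02 for miR-27a with miR-27b. Members that share a cluster thus followed each other, and members that share a seed did not. miR-24 lay between, with r of 0.551 and 0.561 with the a cluster and of 0.611 and 0.671 with the b cluster. That order turned after the group means were taken off (0.591 and 0.769 against 0.423 and 0.495), and within scan day 1 the r were 0.27 and 0.133 against 0.564 and 0.583. These r are descriptions over rats that fall into groups and carry no test.

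**Figure D5:**
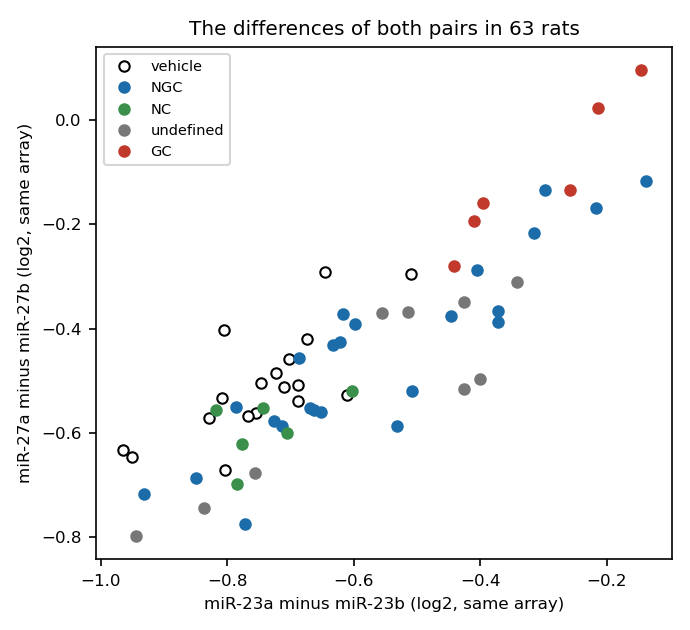
Within-array log2 difference of the miR-23 pair (x axis) against that of the miR-27 pair (y axis) in the 63 rats, by class of compound. The points follow a rising band (r = 0.869), with the GC rats and the ETH rats at its upper right end and most vehicle rats in its lower left part.

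Over all 21 groups the levels differed mostly in small steps. From the highest to the lowest group mean, miR-23b ran from 9.83 ± 0.13 (SD, n = 3) in CO set 3 to 9.33 ± 0.08 in Wy, and miR-27b from 9.06 ± 0.03 in Nif to 8.64 ± 0.09 in DMN. miR-23a ran from 9.29 ± 0.09 in ETH to 8.87 ± 0.01 in DES, miR-27a from 8.59 ± 0.11 in DMN to 8.25 ± 0.13 in PB, and miR-24 from 9.10 ± 0.11 in MC set 1 to 8.82 ± 0.07 in Wy. Of the 20 neighbours in the order of each member, 19 or 20 lay closer than the larger of their SDs. The exceptions were the step from MPy to AA for miR-23a, from ETH to DMN for miR-23b and from PBO to DES for miR-27b. Each member, of either cluster, had its lowest mean in a treated group, though 15 of the 21 groups were treated. The 8 lowest groups for miR-23b were the 8 compounds in which it was called, but the calls were made from these same means.

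The means of the vehicle sets differed in these miRNAs by up to 0.22. Of 35 comparisons of a member between control sets, 2 were called, miR-23a (0.22 ± 0.07, adjusted p = 0.0168) and miR-24 (0.16 ± 0.05, adjusted p = 0.02) higher in MC set 1 than in MC set 6, where 20.4% of all miRNAs were called. Against MC set 6, 6.79% of all miRNAs were called in MC set 2 and 9.26% in MC set 5, and 0% in the other 4 pairs of sets. MC set 6, scanned on day 1, had the lower mean in 15 of 15 comparisons with the sets scanned on days 2 and 3, by 0.08 to 0.22. The Wy, DES and TAA arrays were scanned on day 1 and those of their controls on other days. Falls of that size there cannot be told apart from the scan day. The model term given above does not settle this, since it takes the scan day from other groups with arrays on more than 1 day. AA rats 1 and 2 were scanned on day 1 too, and MC set 1 on days 2 and 3.

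The miRNAs whose levels most resembled those of the members differed between the clusters. Among 66 other miRNAs detected on all arrays, miR-142-3p, a leukocyte miRNA, had the highest r with miR-23a (0.583) and with miR-27a (0.656) over the 63 arrays. It was among the top 3 of both also within scan days 1 and 2. The next were miR-143 (0.501) and miR-21 (0.45) for miR-23a, and miR-21 (0.48) and miR-223 (0.472) for miR-27a. For miR-23b and miR-27b it was miR-26a (0.47 and 0.626), followed by miR-30a* (0.468) and miR-10a-5p (0.432), and by miR-30a (0.507) and miR-30c (0.501). miR-26a was among the top 3 of miR-27b within scan day 1 but not day 2, and of miR-23b within neither. miR-24 was closest to miR-143 (0.605), miR-30c (0.551) and miR-101b (0.516). Of these 15, 7 were in the top 3 within scan day 1 and 5 within day 2. The r of miR-23a with miR-143 was -0.02 within day 1 and 0.879 within day 2.

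Leukocyte miRNAs were called higher in DMN and ETH, the groups with the highest mean of miR-27a and of miR-23a, while none was called higher in MPy, AA and CIDB, the next 3 for miR-23a. Of a list of 6 leukocyte markers, 5 were on the array (miR-142-3p, miR-142-5p, miR-223, miR-150 and miR-146a), and of these 4 were called higher in DMN and 3 in ETH, with log2 fold changes of miR-142-3p of 0.76 and 0.32. Their summed level was 10.55 to 10.89 in DMN against 10.22 to 10.33 in CO set 3, and 10.51 to 10.55 in ETH against 10.33 to 10.36 in MC set 5. In CIDB none was called higher and 1 was called lower, with 10.16 to 10.20, while the miR-23 and miR-27 differences had risen there too. The hepatocyte markers miR-122, miR-192 and miR-194 were detected on all arrays, with a summed level of 14.33 to 14.81 in these groups, and 1 of 3 was called lower in DMN and 2 in ETH and in CIDB. Of the 2 endothelial markers, 1 was called lower in DMN, and of the 4 stellate and smooth muscle markers tested, 3 were called lower in DMN and 1 higher in ETH; miR-145 was detected on no array. Neither erythroid marker was called in these groups. In Wy, 1 stellate marker was called lower and no leukocyte, hepatocyte, endothelial or erythroid marker was called. The part of cell composition in the changes of the members was not tested.

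Between the classes of compounds no member differed in limma. Over 15 tests of 5 members in 3 contrasts, with the compound as unit, 0 were called, as were 0% of all miRNAs, with adjusted p from 0.125 to 0.964 and 4 unadjusted p under 0.05. The mean log2 fold change of miR-23b was -0.13 in the 8 NGC and -0.37 in the 2 GC, and that of miR-27a was -0.09 and 0.16. Both differences had an exact two-sided permutation p of 0.0222 over 45 assignments, the smallest that they allow. For miR-27b the mean was -0.13 in the 10 carcinogens and 0.04 in the 2 NC (exact permutation p = 0.0152, the smallest of 66), and NGC against NC gave exact permutation p = 0.0444. After Benjamini-Hochberg adjustment over the 21 exact tests the smallest of these p was 0.156. The 2 GC share CO set 3 and the 2 NC share MC set 2, so that class and control set cannot be told apart.

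The other arms of the hairpins gave little signal. miR-23a* and miR-24-2* were detected on 2 of 63 arrays, miR-24-1* and miR-27a* on none, and none was well above background on any. miR-181c and miR-181d, whose hairpins lie within 50 kb of the a cluster, were also detected on no array.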

How the data were processed

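Liver RNA of 63 rats was hybridised to 1-colour Agilent miRNA arrays, 1 rat per array. Per the file headers, Agilent Feature Extraction 10.7.3.1 gave the deposited intensity of each spot (mean signal and a background-subtracted signal). The authors also deposited a table of log2 values for 135 miRNAs, and RMA is named in the submitters' processing notes; of its columns, 15 follow another array than the one filed for that sample.

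Here, spot mean signals without outlier flags (2.87% of spots had one) were used. Processing comprised quantile normalization over the 63 arrays, averaging of spots by probe, a log2 transform and a summary of probes by miRNA. Between 81 and 151 miRNAs were detected on an array, and the 3 rats per group limit the precision. limma 3.58.1 (R 4.3.3) was fitted to all 21 groups and the 162 miRNAs detected on at least 1 array, with Benjamini-Hochberg adjustment over them within each compound, and again to the within-array differences of 12 a/b pairs. Both fits were tested on simulated data. Classes were compared with the compound as unit, with limma and with exact permutation tests.

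Every rat's values were given for calls whose groups did not overlap, for miR-23b the 2 largest and some further ones added after the values were seen. Further items described were the other arms, hairpins within 50 kb, the 3 miRNAs most alike each member by Pearson r, and markers of liver cell types. The members and lists were chosen with earlier results of these data known. Alternatives were other background corrections and scalings, the value table, its assignment of arrays, other filters, slide or scan day as a block, pooled controls, separate fits and leaving out each rat. Probe sequences were not used here.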

Additional observations from a re-analysis of the deposited data

How the results depend on the processing

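The count of member changes called higher, 2 as reported, was 5 with the background-subtracted signal scaled by the 75th percentile over detected probes, 5 against all controls of the vehicle, 1 with only the groups compared, 1 with the table's assignment of arrays plus slide, and 0 with that signal scaled over all probes, without the detection filter, and with slide as a block or as a random block. The count called lower, 19 as reported, was 12 with scaling over detected probes, 11 with scan day, 11 with random slide, 5 with the table's assignment plus slide and 3 with slide. The 9 calls of a/b differences became 2 with slide and 4 with the table's assignment plus slide. The 2 calls between control sets became 1 in the value table and 0 with scaling over all probes, with slide, random slide, scan day, or the assignment plus slide. Between classes, 2 were called with scaling over all probes and 6 with single rats as replicates, against 0. Of the 15 most alike miRNAs, 7 recurred within scan day 1 and 5 within day 2. Values changed sign in DES: miR-24 became 0.0064 and miR-27a 0.0086 with slide, and miR-23a 0.016 and miR-23b 0.0448 with the table's assignment plus slide. Leaving out single rats gave 1 to 3 higher calls, 15 to 23 lower calls, 6 to 10 difference calls, 0 to 4 calls between control sets and 0 between classes. The cause of these changes was not tested. With a replicate block for PB and CPA, the only groups whose replicate numbers recur in their control sets, the counts were 2 higher, 19 lower and 10 differences; same-numbered rats did not deviate together (r from -0.30 to 0.04). Scaling over detected probes moved the median of all miRNAs by -0.18 to 0.38 and scaling over all probes by -0.25 to 0.25, which the a/b differences do not carry. No other call changed with the replicate block.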
